A study of Homo sapiens with 12 samples.

Results

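The cytosolic ribosomal proteins were followed here in HUH6 cells, a human hepatoblastoma line, after silencing of the transcription factor GATA4. The genes were found by symbol, as RPL or RPS followed by a number, together with the stalk proteins RPLP1 and RPLP2 and 1 pseudogene, RPL23AP32, which was added to the list with its result already known. On the beadchip 77 of them had a probe, out of 20045 genes with a probe. Of these, 71 had a probe that was above background (detection p under 0.01) on at least 6 of the 12 arrays, out of 10196 genes tested, and the brightest such probe stood for its gene. The 71 comprised 41 proteins of the large subunit (the 2 stalk proteins among them), 25 of the small subunit, 4 paralogs (RPL7L1, RPL26L1, RPL36AL and RPS27L) and the pseudogene. The other 6 (RPL10, RPL36A, RPL3L, RPL10L, RPL39L and RPL22L1) were not tested, since their brightest probes were detected on at most 4 arrays. The brightest probe of RPL10 was detected on 0 arrays (107.4 to 135 raw units) and that of RPL36A on 4 (119.7 to 162.4), and what these probes bind was not checked. RPLP0 and RPSA were not analysed here.

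Both groups were the same cell line, transfected with siRNA at 0.1 uM for 6 h with Lipofectamine RNAiMAX and lysed 72 h after transfection began. The 6 NT siRNA samples received a non-targeting control, and the 6 GATA4 siRNA samples a pool of 4 siRNAs against GATA4, so both groups carried the transfection itself. The labels number the replicates 1 to 6 in each group and do not say whether these were separate cultures, so a p-value here speaks of the spread among these samples alone, which may be technical. Total RNA was read on 1-colour arrays, and the question the comparison addresses is which transcripts differ when GATA4 is silenced.

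The cytosolic ribosome is built from a small subunit, which decodes the mRNA, and a large subunit, which joins the amino acids and carries the stalk that recruits elongation factors. Its proteins are made in near-equal amounts, and their mRNAs are among the most abundant of a growing cell. Most of these mRNAs begin at a C followed by a run of pyrimidines, the 5′ terminal oligopyrimidine (TOP) tract, through which mTORC1 and LARP1 control their translation. Liver tumour cells are known for high ribosome production, which MYC drives through ribosomal protein and biogenesis genes.

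In RefSeq's promoter windows (GRCh38.p14, 250 bases before to 50 after each gene's start), 60 of the 71 tested genes had an entry, and 38 of the 60 (63.3%) began with C and 4 further pyrimidines exactly at the annotated start, against 4.07% of 35116 promoters in the table. With the motif allowed anywhere from 5 bases before to 10 after the start, 47 of 60 (78.3%) held it, against 21.1%. The letters CCGGAA on either strand, a form of the ETS family's site, were in 33 of the 60 windows (55%), against 17.2%. The letters of a GATA factor's motif (AGATAA, the same ending in G, or either form opening with T, on either strand) were in 9 of the 60 (15%), against 25% of all promoters. These are matches of letters in a fixed window, not sites shown to be bound.

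The windows below run from 10 bases before the start to 20 from it, 5′ to 3′ on the gene's strand, and the capitals mark the pyrimidine tract from the start where the start is C and 4 more pyrimidines. They are shown for genes with the largest differences below, for RPL9, which was called after GATA4 siRNA, and for the stalk proteins. RPL8, RPL23A and RPL23AP32 are named only.
RPL21, chr13:27251548-27251577, + strand: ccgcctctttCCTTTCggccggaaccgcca
RPL35A, chr3:197950180-197950209, + strand: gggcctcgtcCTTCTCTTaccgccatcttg
RPL29, chr3:51995876-51995905, - strand: cagcccctttCTCTTCCggttctaggcgct
RPS9, chr19:54200848-54200877, + strand: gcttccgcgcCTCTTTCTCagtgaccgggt
RPS16, chr19:39435930-39435959, - strand: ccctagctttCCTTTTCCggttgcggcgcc
RPLP1, chr15:69452808-69452837, + strand: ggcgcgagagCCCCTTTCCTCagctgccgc
RPLP2, chr11:809957-809986, + strand: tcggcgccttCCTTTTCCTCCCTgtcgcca
RPL13, chr16:89560701-89560730, + strand: cctgcgcaggaggtgagggagactgggtcc
RPL9, chr4:39458903-39458932, - strand: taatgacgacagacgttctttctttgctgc
RPL7L1, chr6:42879606-42879635, + strand: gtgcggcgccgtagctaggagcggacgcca
RPS27L, chr15:63157458-63157487, - strand: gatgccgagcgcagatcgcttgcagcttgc
The first 7 open with a tract, which in RPLP2 ran for 13 bases and in RPL21 for 6. RPL13 and RPL9 have no such start at the annotated position, and neither do the paralogs RPL7L1 and RPS27L.

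GATA4 itself checked the labels. Its raw signal was 137.1 to 168.8 in the NT siRNA samples, where all 6 arrays detected it, and 108.3 to 119.3 in the GATA4 siRNA samples, where none did. Of 8 markers of hepatoblastoma and hepatocytes, 7 were detected (among them AFP and ALB), with a summed raw signal of 78157 to 91102 on every array. DLK1 was not detected. Between arrays, Pearson's r was 0.979 to 0.996, and no 2 arrays held identical values. The arrays fell into 2 sets, replicates 1 to 3 and replicates 4 to 6 of both groups, which the labels do not name, and the groups are compared below with the replicate number as a block.

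After GATA4 siRNA, 2 of the 71 genes were higher and 1 was lower in the blocked fit (limma, Benjamini-Hochberg adjusted p under 0.05 over all genes). Among all genes tested 2.66% were higher and 3.78% lower, so that the members' shares stood near the background. The 2 higher were the pseudogene RPL23AP32 and RPL9, and the lower was RPL8. With bulk RNA, fewer cells of a type and less RNA per cell cannot be told apart. The members' median log2 change was 0.0078, beside 0.0021 over all genes, and 64 of the 71 lay within 0.1 of 0 on the log2 scale, as did 6505 of the 10196 genes. The median size of the change was 0.043 for the members and 0.072 for all genes, most of which were dimmer. Above 10000 raw units, 36 of 41 members and 104 of 114 other genes lay within 0.1. Their median sizes were 0.043 and 0.039. At 2000 to 10000 units the median sizes were 0.038 for 20 members and 0.051 for 1228 other genes. The members' split into higher and lower depended on the scaling of the arrays. With arrays scaled to equal medians in place of equal quantiles, 1 member was higher and 18 were lower (1.13% and 6.3% of all genes). The members' median was then -0.10 and that of all genes -0.04.

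**Figure D1:**
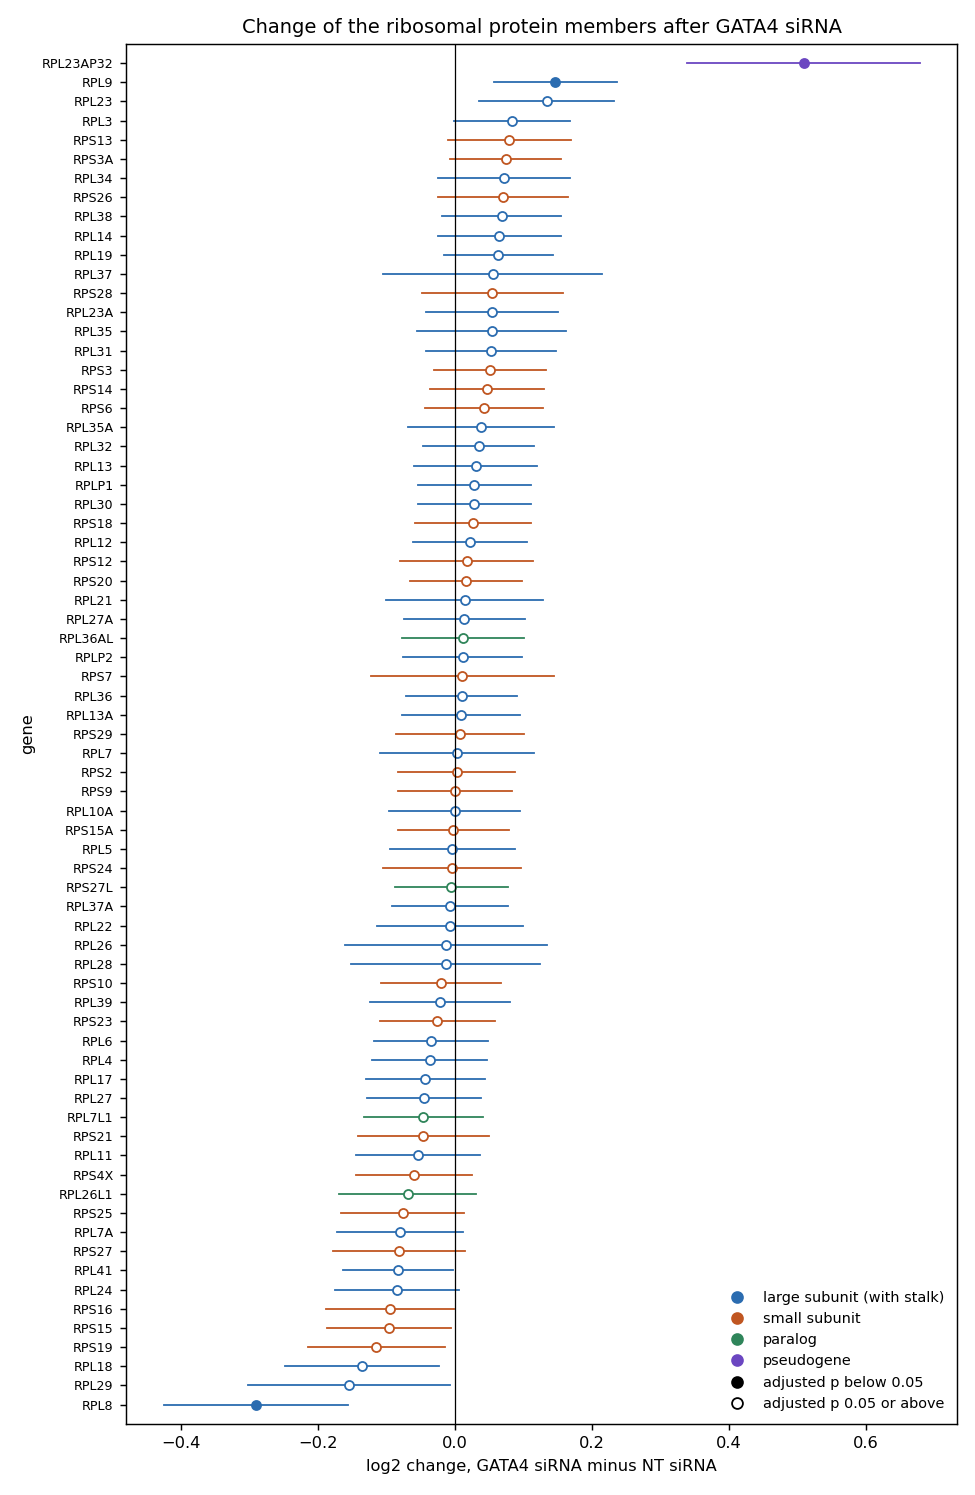
Log2 change of the 71 tested genes between GATA4 siRNA and NT siRNA samples (x axis, n = 6 each, quantile normalised, replicate block) with 95% confidence intervals, by gene (y axis). Filled points have an adjusted p under 0.05: RPL23AP32 and RPL9 above 0 and RPL8 below it; with arrays scaled to equal medians the members' median moves from 0.0078 to -0.10 and RPL9 is no longer called.

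RPL23AP32 is annotated as a pseudogene of RPL23A, the large subunit protein near the exit of the peptide tunnel. Its log2 signal in the NT siRNA samples ran from 7.54 through a median of 7.66 to 7.71. In the GATA4 siRNA samples it ran from 7.82 through 8.21 to 8.52. The groups did not overlap, which was so for 1 of the 71 members and for 1.68% of all genes. The change was 0.51 (SE 0.082, 1.42-fold, adjusted p = 0.000368), and all 6 pairs were higher, by 0.13 to 0.89. With arrays scaled to equal medians it was 0.48. Within replicates 1 to 3 alone it did not pass (0.33, adjusted p = 0.175). It was also the single member called without the block (adjusted p = 0.0462), where 0.706% of genes were called. The probe was dim, at 277.3 to 490 raw units. RPL23A, read by its own probe, differed by 0.05 (SE 0.046, adjusted p = 0.569). Whether the pseudogene's probe also binds the mRNA of RPL23A or of another copy cannot be read from these files, and a second probe of RPL23AP32 was not detected.

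RPL9 is a large subunit protein at the base of one of the ribosome's stalks. Its log2 signal ran from 13.50 through 13.66 to 13.74 in the NT siRNA samples. It ran from 13.56 through 13.78 to 14.07 in the GATA4 siRNA samples, and the groups overlapped. RPL9 was higher by 0.15 (SE 0.044, 1.11-fold, adjusted p = 0.0455), in 5 of 6 pairs, replicate 1 being the exception. Its other 2 probes gave 0.12 (unadjusted p = 0.0460) and 0.07 (unadjusted p = 0.261). The call was lost when any 1 of replicates 2 to 6 was left out (adjusted p 0.0636 to 0.187), and with arrays scaled to equal medians the change was 0.03.

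RPL8 is a large subunit protein close to the peptidyl transferase centre. In the NT siRNA samples its log2 signal ran from 13.83 through 14.02 to 14.14. In the GATA4 siRNA samples it ran from 13.44 through 13.69 to 14.15. The groups overlapped, since replicate 5 of the GATA4 siRNA samples had the highest value of all 12. RPL8 fell by 0.29 (SE 0.065, 1.22-fold, adjusted p = 0.00727), in 5 of 6 pairs, and the pair differences ran from -0.70 to 0.13. With arrays scaled to equal medians its change was -0.43. Its second probe, much dimmer at 184.3 raw units, gave -0.05 (SE 0.095), and the mean of both probes was no longer called (adjusted p = 0.0641). Without the block the adjusted p was 0.253.

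**Figure D2:**
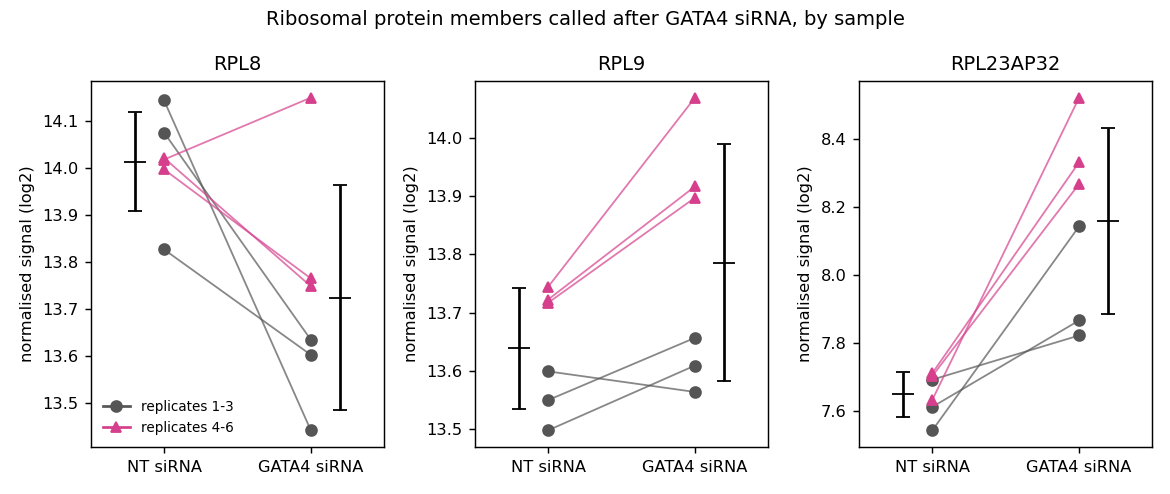
Normalised log2 signal (y axis) of RPL8, RPL9 and RPL23AP32 in the 6 NT siRNA and the 6 GATA4 siRNA samples, with lines joining samples of the same replicate number and bars giving mean and SD. RPL23AP32 does not overlap between groups, while RPL8 and RPL9 do; the rise of RPL9 shrinks to 0.03 when arrays are scaled to equal medians.

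Within the sets, different members passed. In replicates 1 to 3 alone 1 member was called, RPL8 at -0.46 (adjusted p = 0.00463), where 1.19% of genes were called. In replicates 4 to 6 alone 4 were called, where 5.19% of genes were: RPL23AP32 at 0.69, RPL9 at 0.23, RPL23 at 0.23 and RPS19 at -0.23. RPL23, a large subunit protein that also restrains MDM2, had values of 13.24 to 13.30 in the NT siRNA samples and 13.21 to 13.55 in the GATA4 siRNA samples. RPS19, the small subunit protein most often mutated in Diamond-Blackfan anaemia, had 13.86 to 14.05 and 13.65 to 14.01. A call in 1 set and not in the other is not a difference between them: in the test of that difference 0 members were called, and 0 of all genes (0%), with 6 members and 833 genes at an unadjusted p under 0.05. Over all 12 arrays RPL23 (0.13, adjusted p = 0.101) and RPS19 (-0.11, adjusted p = 0.176) did not pass. RPL23 passed when replicate 2 was left out (0.18, adjusted p = 0.0275).

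The remaining members did not pass at their brightest probes under quantile normalisation. Across the large subunit the change ran from -0.29 to 0.15 with a median of 0.0099, and 23 of 41 were above 0. Below RPL8 in size came RPL29, at -0.15 (SE 0.071, adjusted p = 0.221), and RPL18, at -0.14 (SE 0.054, adjusted p = 0.151). RPL18 had 13.89 to 14.29 in the GATA4 siRNA samples against 14.16 to 14.34 in the NT siRNA samples, and passed when replicate 1 was left out (-0.19, adjusted p = 0.0367). RPL3, which forms part of the catalytic centre's surroundings, stood at 0.08. The stalk proteins RPLP1 and RPLP2, which bind elongation factors as dimers, stood at 0.03 (SE 0.040) and 0.01 (SE 0.042) and had 3 pairs higher and 3 lower each. Under scaling to equal medians they came to -0.13 and -0.14, with adjusted p-values of 0.0692 and 0.06.

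Across the small subunit the change ran from -0.11 to 0.08 with a median of 0.0024, 13 of 25 were above 0, and none passed the test (3 at an unadjusted p under 0.05; adjusted over all genes by limma). The lowest were RPS19, RPS15 (-0.10) and RPS16 (-0.09), and the highest RPS13 (0.08) and RPS3A (0.07). Scaled to equal medians, 10 of the 25 were called lower and 0 higher, with a median of -0.11, while 8 of 41 in the large subunit were called lower. Among other genes above 10000 raw units, 45 of 114 were called lower under that scaling and their median was -0.13, beside -0.13 for the 41 members above that brightness. That alternative equalises the median of the background-corrected log2 signals of all probes. Between 16067 and 16804 of the 48106 probes were detected on each array, so this median fell among undetected probes. Before correction the median raw signal of all probes was 117.4 to 121.2 units after NT siRNA and 120.8 to 128.1 after GATA4 siRNA. The members' median raw signal was 10284 to 11286 and 9950.5 to 12803. The part of this choice of scale in the lower values was not tested.

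Of the paralogs, RPL7L1 (-0.05), RPL26L1 (-0.07), RPL36AL (0.01) and RPS27L (-0.01) did not pass at their brightest probes after GATA4 siRNA. The widest 95% interval among these probes, that of RPL26L1, reached from -0.17 to 0.03. A second probe of RPL26L1, at 398.4 raw units, gave -0.19 (SE 0.074, limma adjusted p = 0.148 over all tested probes), outside that interval. RPL26L1 and RPL36AL are close copies of RPL26 and RPL36A, and RPS27L is a copy of RPS27 that p53 induces.

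Several of the proteins have more than 1 probe, and in 3 of them a dimmer probe passed where the brightest did not. In a fit over all 13201 tested probes, added after the data were seen, 2 of the members' 114 probes were higher and 3 lower, where 2.33% of all probes were higher and 3.6% lower. RPL23AP32 and RPL8 were among them, RPL9 was not (adjusted p = 0.0528), and the others were dimmer probes of RPL7L1, RPL6 and RPLP1.

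The second probe of RPL7L1, at 838.4 raw units and detected on all 12 arrays, ran from 9.47 through 9.72 to 9.84 in the NT siRNA samples and from 9.28 through 9.33 to 9.51 in the GATA4 siRNA samples, a small overlap. It was lower in all 6 pairs, by 0.34 on average (-0.34, SE 0.056, 1.26-fold, adjusted p = 0.000670), also without the block (adjusted p = 0.0312) and with arrays scaled to equal medians (-0.38). The brighter probe of the same gene gave -0.05 (SE 0.042). The files assign both to 1 transcript record of RPL7L1, and what each one binds could not be checked.

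For RPL6 the dimmest of 3 probes, at 934.1 raw units, ran from 9.70 through 9.80 to 9.91 and then from 9.39 through 9.58 to 9.82, lower in all 6 pairs by 0.20 (-0.20, SE 0.050, adjusted p = 0.0171). Its brightest probe gave -0.03 and the middle one -0.12 (adjusted p = 0.119), so that the 3 shared a sign. For RPLP1 the dimmest of 3 probes, at 2269 raw units, ran from 10.73 through 10.87 to 11.16 and then from 10.79 through 11.17 to 11.61, higher in 5 of 6 pairs by 0.26 (SE 0.070, adjusted p = 0.0328). The brighter 2 gave 0.03 and 0.01, and under equal medians the dimmest no longer passed (0.19, adjusted p = 0.0676). Neither RPL6 nor RPLP1 passed at these probes without the block. Of the 32 members with more than 1 tested probe, 10 had a probe of the opposite sign to the brightest, and in none of these did the opposing probe reach an unadjusted p under 0.05. Among the 10 were RPL17, RPL32 and RPS26, whose brightest probes gave -0.04, 0.03 and 0.07.

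**Figure D3:**
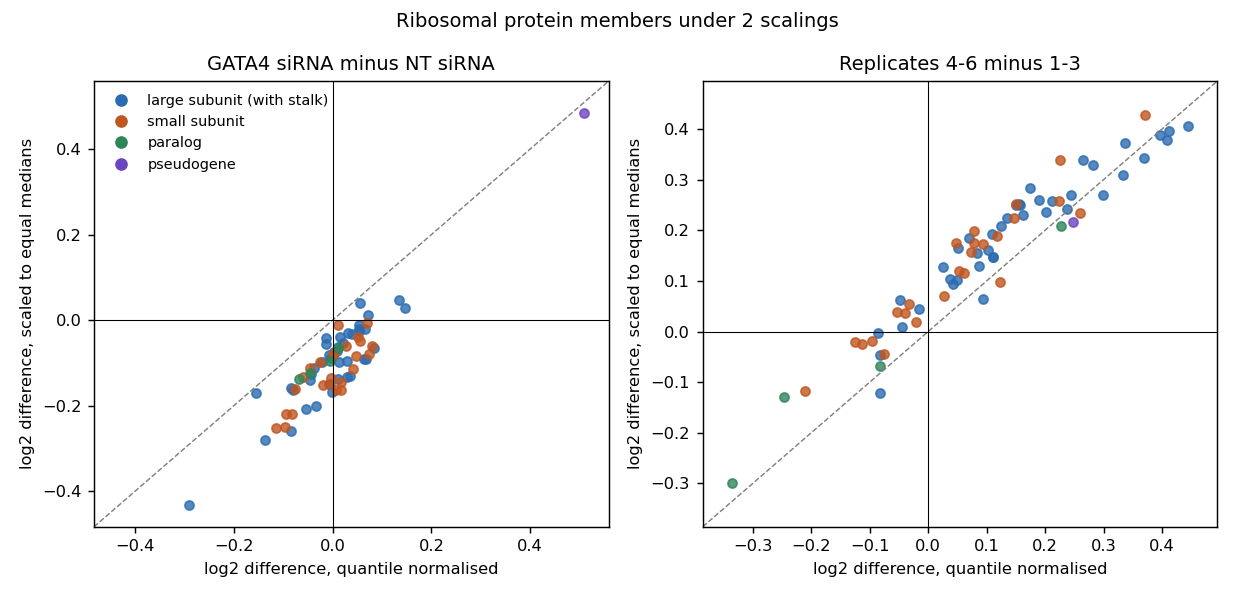
Log2 differences of the 71 tested genes under quantile normalisation (x axis) and with arrays scaled to equal medians (y axis), for GATA4 siRNA minus NT siRNA (left) and for replicates 4 to 6 minus 1 to 3 (right); the dashed line marks equal values. On the left 5 of 71 lie above 0 under equal medians, against 38 under quantiles; on the right 60 do, against 53.

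The members sat at the top of the arrays' range. Of the 71, 41 had a mean raw signal above 10000 units (57.7%), against 155 of all 10196 genes (1.52%), and 27 exceeded 15000. The 5 brightest probes were those of RPS12 (16171 to 22958 raw units over the 12 arrays), RPS29, RPL41, RPL6 and RPL18, which averaged between 19010 and 20544. The mean signals of the 20 brightest members spanned 0.37 on the log2 scale. The 5 dimmest were RPL37 (225.1 to 286.8), RPL29, RPL23AP32, RPS7 and RPL28, at 258.4 to 386.4 on average. These raw signals are given per probe, and levels of different probes are not compared as levels of mRNA. The highest value of any member, 22957.7, lay below the highest of any probe, 39186.9, and both lay below the 65535 that a 16-bit scanner can record. No member was therefore at the scanner's ceiling, and a plateau of the bead signal below it was not tested. The spread within groups and sets was alike, at a median SD of 0.076 for members above 10000 units and 0.080 for the rest, beside 0.107 over all genes.

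The replicate sets differed at more of the members than the siRNA groups did (38 against 3 of 71). The same held for all genes, with 5208 of 10196 called between the sets. After GATA4 siRNA 271 of all genes were called higher and 385 lower. The sets were first noticed in these same arrays, so these counts are a description. With the siRNA group as a term, 33 of 71 members were higher and 5 lower in replicates 4 to 6, where 25.9% of all genes were higher and 25.2% lower. Of the members, 53 were above 0 and the median was 0.10, beside 0.014 over all genes. All 6 values lay above all 6 of the other set for 19 members, which was so for 11.4% of all genes, and below them for 3, against 14.3%. Scaled to equal medians, 44 were higher and 2 lower, with 19.7% and 24.8% of all genes. In the NT siRNA samples alone 24 were higher and 4 lower between the sets, where 38.3% of all genes were called in either direction. In the GATA4 siRNA samples alone 28 were higher and 5 lower, where 36.4% of all genes were called. Both shares pool the directions, so they give no background for the members' split by direction. By array, the members' median deviation from each gene's mean lay between -0.059 and -0.042 on the 6 arrays of replicates 1 to 3 and between 0.028 and 0.096 on those of replicates 4 to 6, and the 2 sets did not overlap.

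**Figure D4:**
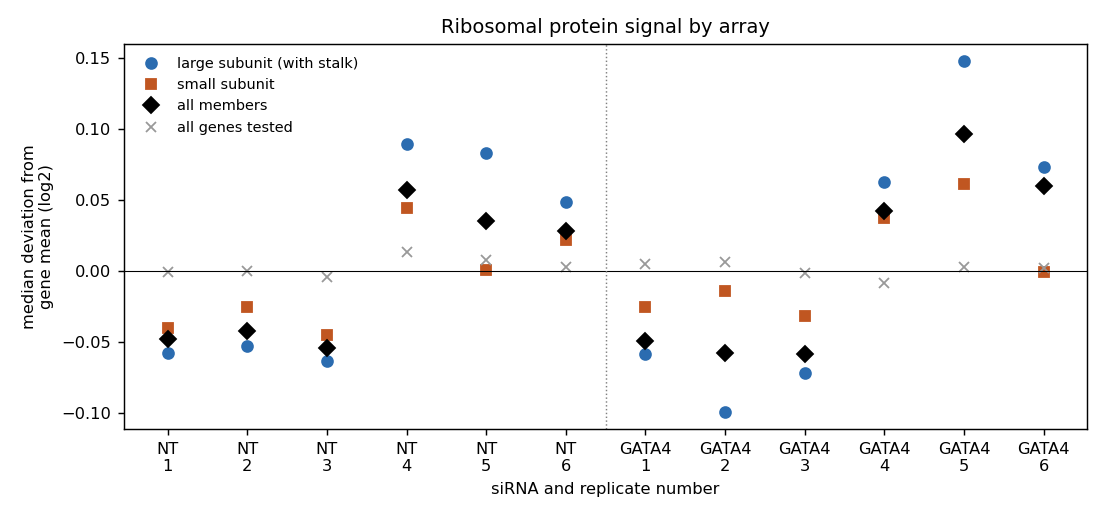
Median deviation of the log2 signal from each gene's mean over 12 arrays (y axis), by siRNA and replicate number (x axis), for all 71 tested genes, the large subunit, the small subunit and all 10196 genes. The members lie below 0 on all 6 arrays of replicates 1 to 3 and above 0 on all 6 of replicates 4 to 6, in both siRNA groups.

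In the large subunit 24 of 41 were higher in replicates 4 to 6 and 0 lower, with a median of 0.13. The highest was RPL21. Its log2 signal ran from 9.42 through 9.64 to 9.67 in replicates 1 to 3 and from 9.89 through 10.03 to 10.25 in replicates 4 to 6, a difference of 0.44 (SE 0.058, 1.36-fold). RPL13 ran from 10.86 through 10.93 to 11.01 and then from 11.31 through 11.34 to 11.39, a difference of 0.41 (SE 0.041). RPL29 (0.41), RPL35A (0.40), RPL23A (0.37), RPL31 (0.34) and RPL34 (0.33) followed, and none of these overlapped between sets. RPL35A ran from 11.06 through 11.12 to 11.36 in replicates 1 to 3 and from 11.49 through 11.57 to 11.61 in replicates 4 to 6. RPL23A ran from 10.39 through 10.50 to 10.55 and then from 10.74 through 10.87 to 10.93. In each of these genes the 6 arrays of replicates 4 to 6 were the high ones, whichever siRNA they had received. RPL36 (0.28), RPL39 (0.24), RPL24 (0.24), RPL13A (0.17) and RPL27 (0.13) were also higher without overlap. RPL9, one of the genes called after GATA4 siRNA, was also higher in replicates 4 to 6, by 0.26 (SE 0.042), and RPL8 by 0.16 (SE 0.067, adjusted p = 0.0452). The stalk proteins RPLP1 (-0.05) and RPLP2 (-0.09) did not pass.

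In the small subunit 7 of 25 were higher and 3 lower, with a median of 0.06. RPS9, whose yeast counterpart affects decoding fidelity, ran from 12.55 through 12.64 to 12.73 in replicates 1 to 3 and from 12.98 through 13.01 to 13.05 in replicates 4 to 6, a difference of 0.37 (SE 0.038). RPS21 (0.26), RPS2 (0.23) and RPS4X (0.22) came next. The 3 lower were RPS16 (-0.21), RPS19 (-0.13) and RPS10 (-0.11), all above 10000 raw units, and their sets overlapped. With arrays scaled to equal medians these 3 came to -0.12, -0.02 and -0.03 and none passed, while 12 of the 25 were higher. No test was run of the large against the small subunit.

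Among the paralogs, RPL7L1 and RPS27L were lower in replicates 4 to 6. RPL7L1, a relative of RPL7, ran from 12.61 through 12.72 to 12.79 in replicates 1 to 3 and from 12.21 through 12.39 to 12.46 in replicates 4 to 6, a difference of -0.34 (SE 0.045). RPS27L ran from 13.44 through 13.46 to 13.52 and then from 13.10 through 13.25 to 13.28, a difference of -0.25 (SE 0.039). Both remained called under equal medians (-0.30 and -0.13). The second probe of RPL7L1 differed by 0.01 (SE 0.057) between the sets, so the 2 probes of this gene disagreed in both comparisons, each passing in the one where the other did not. RPL26L1 was higher by 0.23 (SE 0.048). RPL36AL differed by -0.08 (adjusted p = 0.0850), with replicates 4 to 6 below the other set without overlap, as for 14.3% of all genes. Its second probe, at 2528 raw units, differed by 0.0027 (limma adjusted p = 0.968). The pseudogene was higher by 0.25 (SE 0.076, adjusted p = 0.00791).

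The size of the set difference went with the brightness of the probe. Members above 10000 raw units had a median difference of 0.05, and the 30 at or below it 0.23, of which 21 were called higher and 1 lower. Over the 71 members the log2 raw signal and the set difference correlated at Pearson's r = -0.458 and Spearman's rho = -0.564, given as a description, since the genes share the same 12 arrays and 1 normalisation. Over 6865 other genes at least as bright as the dimmest member the values were -0.020 and -0.018. In all 12 members with 1 probe above 10000 units and another under 4000, the dimmest probe gave the higher set difference, with medians of 0.26 at the dimmest and 0.11 at the brightest probe of the same gene. Over all 32 members with more than 1 tested probe this was so in 25, the exceptions being RPL13 (0.02 at the dimmest and 0.41 at the brightest probe), RPL29, RPL3, RPL36, RPS3A, RPS6 and RPS7. For RPL8 the values were 0.30 and 0.16, and for RPL10A 0.28 and 0.10. Of the members' 43 probes other than the brightest, 24 were higher in replicates 4 to 6 and 1 lower, where 25.5% of all probes were higher and 23.3% lower. Without regard to sign, the median set difference above 10000 units was 0.083 for the members and 0.088 for other genes. At 2000 to 10000 units it was 0.218 for 20 members and 0.140 for 1228 other genes. With the sign kept, the members' medians in these 2 bands were 0.05 and 0.21, and those of other genes -0.016 and 0.012.

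**Figure D5:**
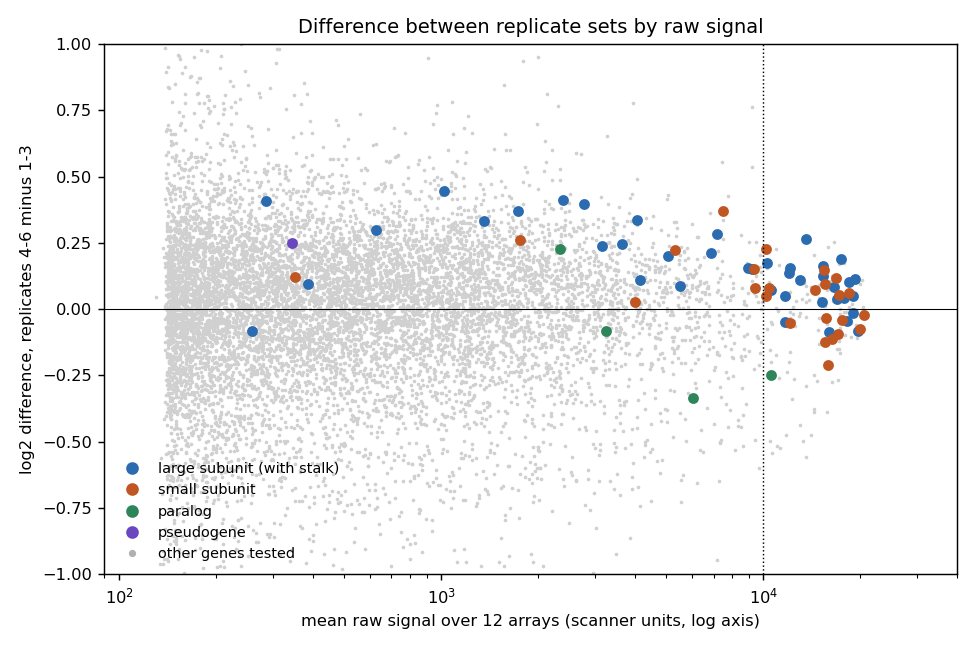
Log2 difference between replicates 4 to 6 and 1 to 3 (y axis) against the mean raw signal over 12 arrays (x axis, log scale) for the 71 tested genes by class and for 9965 other genes in grey; 160 other genes lie outside the axes, and the dotted line marks 10000 units. Members at or below that line have a median of 0.23 and those above it 0.05.

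Members with and without a pyrimidine start exactly at the annotated position had close medians in both comparisons. With the motif allowed from 5 bases before to 10 after the start, 47 of the 60 held it. Some of those counted as without thus have a tract nearby, and the split does not separate TOP mRNAs from others. The 38 with a pyrimidine start had a median set difference of 0.09, with 17 called higher and 2 lower, and the 22 with another start 0.12, with 11 and 3. After GATA4 siRNA the medians were 0.0043 and 0.0037. RPL21, RPL29 and RPL35A open with a tract at the annotated start and RPL13 does not, as the windows above show. All 4 differed by about the same amount between sets. No test was run on this split.

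Other genes of the same machinery were read in the same fits, from lists chosen with earlier results known. The background for the counts after GATA4 siRNA is 2.66% of all genes tested higher and 3.78% lower. No list as a whole was tested against it. After GATA4 siRNA 0 of 6 elongation factors passed (1 at an unadjusted p under 0.05, EEF1B2 at 0.09), 0 of 46 ribosome biogenesis genes (3 unadjusted), 0 of 15 genes of RNA polymerase I transcription (1 unadjusted) and 0 of 12 ribosome-associated factors (0 unadjusted). FAU, the precursor of a small subunit protein outside the symbol rule, stood at 0.02 (adjusted p = 0.818). Of 43 initiation factors 1 was higher, the cap-binding protein EIF4E, at 0.30 (SE 0.085, adjusted p = 0.0338). Of 21 other TOP genes 1 was higher, the snoRNA host SNHG5, at 0.19 (SE 0.045, adjusted p = 0.0137). Of 21 genes on a list joining regulators of mTORC1 and TOP mRNAs with the MYC network, 2 were higher. These were the transcription factors MYC (0.17, adjusted p = 0.0332) and MYCN (0.17, adjusted p = 0.0370). In the same list 2 were lower: RPS6KB1, the S6 kinase that phosphorylates RPS6, at -0.23 (SE 0.049, adjusted p = 0.00436), and TSC1, which restrains mTORC1, at -0.22 (SE 0.057, adjusted p = 0.0208). Of 76 mitochondrial ribosomal proteins, which build a separate ribosome, 1 was higher (MRPL52, 0.30) and 1 lower (MRPL9, -0.22). Of 6 genes of ribosome stress and p53 1 was higher, the cell cycle inhibitor CDKN1A, at 0.24 (SE 0.042, adjusted p = 0.000923). None of these list genes passed without the block.

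Between the replicate sets the same lists held calls too, in shares that ran from below to above the 25.9% of all genes called higher and the 25.2% called lower. In replicates 4 to 6, 47 of the 76 mitochondrial ribosomal proteins were higher and 5 lower (median 0.19), 21 of 46 biogenesis genes were higher and 1 lower (median 0.11), 11 of 21 other TOP genes were higher and 0 lower (median 0.11), and 5 of 15 RNA polymerase I genes were higher and 0 lower (median 0.19). Of the elongation factors 3 of 6 were higher and 0 lower (median 0.15), and of the initiation factors 13 of 43 were higher and 5 lower (median 0.06). The listed genes of mTORC1, TOP mRNA regulation and the MYC network were split, 6 of 21 higher and 6 lower (median -0.05). So were the ribosome-associated factors, 4 of 12 higher and 3 lower (median 0.01). Of the 6 genes of ribosome stress and p53 1 was higher and 5 were lower (median -0.49), and FAU was higher by 0.18. MYCN was higher by 0.93 (SE 0.049) and MYC by 0.27 (SE 0.046). CDKN1A was lower by 0.72 on the log2 scale (-0.72, SE 0.050) and MDM2 by 0.50 (-0.50, SE 0.11). The sums of 2 marker lists moved with the sets as well. The 4 lymphocyte markers summed to 2785.8 to 2926.1 raw units in replicates 1 to 3 and to 1542.4 to 2031.4 in replicates 4 to 6, with CD3D alone detected on at least 6 arrays. The 5 macrophage markers summed to 1237.3 to 1353.5 and to 943.1 to 1154.8, with CD68 and CD14 detected on all 12 arrays, CD163 on 3 and C1QA and MARCO on 0. The sums of the fibroblast list (794.6 to 952.5) and of the endothelial list (699.2 to 884.6) overlapped between sets. Their part in the members' difference was not tested.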

How the data were processed

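Per the labels, biotin-labelled total RNA was hybridised to Illumina beadchips. For every probe the deposited scanner file holds an intensity on the linear scale, obtained with GenomeStudio per the submitters' processing notes (no version given). The lowest is 82.2, so background was still in it. Per the file headers, each intensity is followed by its detection p-value. Another deposited table, repeated in the series table, holds log2 values by the authors, whose method no source used here states; quantile normalisation of the log2 scanner signals came within 0.0141 of them.

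Names came from the platform annotation, and symbols were brought up to date by gene ID with RefSeq (30073 probes matched, 39 did not). Of 48106 probes, 30112 have 1 gene symbol, 8 several and 17986 none. Background correction from the detection p-values (offset 16), quantile normalisation and the log2 step were done with neqc (limma 3.58.1, R 4.3.3). Probes with a detection p under 0.01 on 6 or more of the 12 arrays were kept (13201 probes, 10196 genes), 1 per gene by brightness. The linear models used lmFit and eBayes (trend on), with two-sided p-values adjusted by Benjamini-Hochberg over all genes at a threshold of 0.05, and were tested on simulated data. The number of arrays, 6 per group, limits the precision.

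About their group means, samples with the same number correlated at 0.547 to 0.603 (Pearson's r over genes), so the replicate number was used as a block. Other numbers within the same set correlated as much (0.548 to 0.629), and numbers of the other set at -0.625 to -0.537. The alternatives were the block, the sets apart, each replicate left out, the authors' values, the background correction, the scaling, the filter, the mean of probes and the variance model.

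The members, lists, sets and alternatives were chosen with earlier results of these data known. By rule the text names members called after GATA4 siRNA, the 5 highest and 5 lowest in each comparison, the stalk proteins, the paralogs, the pseudogene, the 5 brightest and 5 dimmest members, members with a probe of opposite sign, and up to 3 called genes per list and direction. The other tested members named (RPL10A, RPL13A, RPL23A, RPL24, RPL27, RPL31, RPL34, RPL39, RPS2, RPS4X, RPS6, RPS20 and RPS21) were chosen after their values were seen. The level of 10000 raw units was set after the files were seen.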

Additional observations from a re-analysis of the deposited data

Results flagged for a closer look

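Among 35 members picked by the naming rule and their 70 groups of 6 samples, 2 samples stood far from the other 5 of their group by Dixon's ratio, where chance gives about 1 in 20 groups, or 3.5 of 70. RPS15 in replicate 6 of the GATA4 siRNA samples had a log2 signal of 13.8541, below the 14.02 to 14.11 of the others. RPS7, read by one of the dimmest probes, had 8.159 in replicate 4 of the GATA4 siRNA samples, above the 7.92 to 8.01 of the others. Under quantile normalisation neither gene was called in either comparison, while under equal medians RPS15 was called lower after GATA4 siRNA (-0.25, limma adjusted p = 7.5e-05). The cause was not tested.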

How the results depend on the processing

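After GATA4 siRNA 3 members were called with the replicate block and 1 without it, and the pairing comes from the sets as much as from the numbers. The count was 1 in replicates 1 to 3 alone, 1 with no filter on dim probes, 1 without the variance trend and 1 when members above 10000 raw units were left out, and 19 with arrays scaled to equal medians; counting every tested probe of the members, also an alternative chosen after seeing the data, gave 5 probes. Leaving out 1 replicate at a time gave 2 to 4. The count was within 1.5 times in the other alternatives. The members' median of 0.0078 moved to -0.0967 under equal medians, and lay between 0.0035 and 0.0120 with 1 replicate left out. Under equal medians RPS12 (-0.163), RPS29 (-0.164) and RPS20 (-0.144) turned from above 0 to called lower. Over 13 alternatives RPL23AP32 was called in 12 (0.33 to 0.69), RPL8 in 10 (-0.46 to -0.12) and RPL9 in 4 (0.03 to 0.23). Between the replicate sets 38 members were called, where 25.9% of all genes were higher and 25.2% lower. The count was 32 to 40 with 1 replicate left out (share of all genes not given here) and 22 without the members above 10000 units (of 30). The median of 0.10 moved to 0.175 under equal medians and to 0.226 without the bright members, and lay between 0.093 and 0.105 with 1 replicate left out. Leaving out the pseudogene, chosen after seeing the data, left 2 calls and medians of 0.0052 and 0.098. The causes were not tested. Where the bead signal flattens was not measured here.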
